A study of Mus musculus with 24 samples.

Results

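The genes described here are 35 genes of glycolysis and of the response to low oxygen, taken from a fixed list of symbols, and 34 of the 35 were among the 12091 genes of the deposited table. By role, 4 of the 34 act in glucose uptake and the first hexose steps, 4 at the phosphofructokinase step, 8 from aldolase to pyruvate kinase and 3 in the fate of pyruvate and lactate. A further 3 are a subunit of the hypoxia-inducible factor HIF and its prolyl hydroxylases, and 12 are known targets of hypoxia: 3 act at mitochondria, 4 are secreted factors or collagen-modifying enzymes, and 5 are stress or chromatin regulators. The symbol Ero1l is absent from the table, which lists the same gene as Ero1a. Ero1a was kept out of all counts, and its lowest adjusted p over the 6 comparisons was 0.166 by limma, with log2 differences between −0.53 and 0.28.

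The study asked what pleiotrophin (PTN), a secreted heparin-binding growth factor, does in mouse breast cancer, and RNA was sequenced from 24 samples in 8 groups of 3. In 2 tumor models, mice received the anti-PTN antibody 3B10 at 15 mg/kg 2 times weekly or C44, the IgG control. The 4T1 tumors grew from an implanted mammary carcinoma line in BALB/c mice, and the *MMTV-PyMT* tumors arose in FVB/N mice whose transgene drives the polyoma middle T antigen from the mouse mammary tumor virus promoter, with treatment begun at 8 wk of age on tumors already present. The cultured lines were E0771, a C57BL/6 mammary adenocarcinoma line, and E0771-LG, which was derived from a lung metastasis of E0771. Each line carried either a PTN shRNA (E0771shPTN and E0771-LGshPTN) or a control vector with a sequence against EGFP (E0771shCtrl and E0771-LGshCtrl). A single shRNA construct was used for both lines, and all 4 infected populations were selected separately in puromycin, so an effect of PTN loss cannot be told apart from an effect of that construct or of selection. The tumors are bulk tissue with host cells, and the lines were grown without them.

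Glycolysis splits glucose into pyruvate and yields ATP without oxygen, with hexokinase, phosphofructokinase and pyruvate kinase as its controlled steps. When oxygen falls, the prolyl hydroxylases no longer mark HIF-1α for destruction, and the factor then raises transcription of glucose transporters, most glycolytic enzymes, lactate dehydrogenase A, pyruvate dehydrogenase kinase and the angiogenic factor VEGF-A. Breast tumors are known both for poorly perfused regions and for lactate production in the presence of oxygen.

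Values are log2 values as deposited. In the *MMTV-PyMT* tumors and the cells they are log2 CPM (counts scaled to the total reads of the sample, with 0.5 reads added), from 15.6 to 21.1 M reads per sample. In the 4T1 tumors they are on another scale, already divided by gene length, and their depth is unknown, so levels of a gene are compared only within the other 18 samples or within 4T1. A gene is called higher or lower where its adjusted p from limma, over all genes tested in that comparison, is under 0.05. The replicates of a group are biological ones by the study's methods.

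Ptn itself had 2.90, 2.18 and 2.28 log2 CPM in E0771shCtrl and −0.63, 0.25 and 0.53 in E0771shPTN. It had 3.65, 4.51 and 3.74 in E0771-LGshCtrl and 1.42, 0.98 and 1.38 in E0771-LGshPTN. Every knockdown sample lay below every control sample of its line. Ptn fell by 2.40 on the log2 scale in E0771 (SE 0.37, adjusted p = 0.00159) and by 2.71 in E0771-LG (SE 0.28, adjusted p = 6.3e-05, limma), and it was higher in E0771-LGshCtrl than in E0771shCtrl by 1.51 (SE 0.28, adjusted p = 0.0012). In *MMTV-PyMT* tumors Ptn had 2.80, 2.73 and 3.42 log2 CPM with C44 and 3.28, 2.95 and 4.22 with 3B10, groups that overlapped. In 4T1 tumors it had log2 values of −0.19, −0.65 and −0.12 with C44 and −0.76, 0.86 and 0.37 with 3B10, near the lowest value of the table, and did not pass the filter on low values. The antibody acts on the protein, so these mRNA values do not check the treatment.

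Per kilobase of exon, Ldha, which makes lactate from pyruvate, ranked highest of the 34 in every group of *MMTV-PyMT* tumors and cells, and Pkm, the pyruvate kinase gene, ranked highest in both 4T1 groups. Tpi1, for triose phosphate isomerase, was within the highest 5 of the 34 in every group. Aldoc, the brain-type aldolase, held 25.6% of the summed Aldoa and Aldoc level per length in *MMTV-PyMT* tumors with C44 and 0.0312% in E0771shCtrl. It failed the filter on low values in the cells, which left 33 members tested there. In these bulk tumors, fewer cells of a type and less RNA per cell cannot be told apart.

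**Figure D1:**
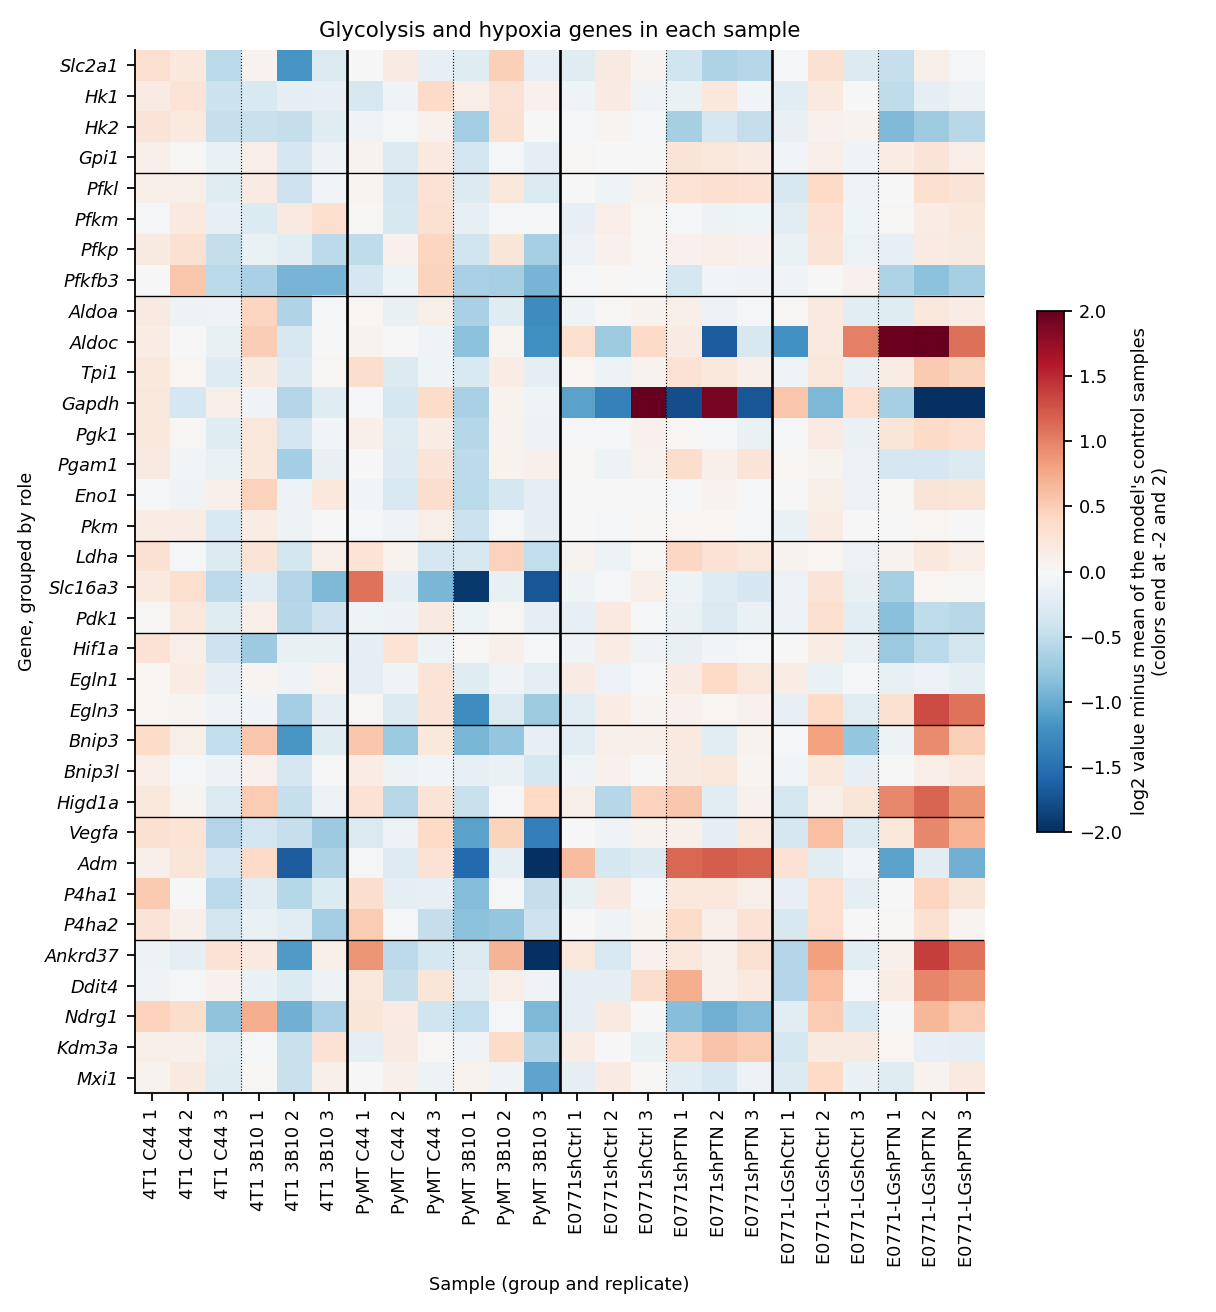
Log2 value of each of the 34 genes (rows, grouped by role) in each of the 24 samples (columns), minus the mean of the control samples of the same model, with colors ending at −2 and 2. Adm and Ndrg1 stand apart in E0771shPTN, Hk2 and Hif1a are low in E0771-LGshPTN, and Gapdh varies between replicates in the cells.

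The mRNA of isoenzymes of the same step stood in different proportions in the groups. Of Hk1 and Hk2, the hexokinases of the list, which trap glucose as glucose 6-phosphate, Hk2 held 9.86% of the summed level per length in *MMTV-PyMT* tumors with C44 (SD 1.63, n = 3) and 36.6% in E0771shCtrl (SD 1.55, n = 3). The Hk2 share lay between 34.8% and 37.6% in E0771shCtrl and between 28.4% and 30.3% in E0771shPTN. It lay between 30.4% and 33.1% in E0771-LGshCtrl and between 24.9% and 26.7% in E0771-LGshPTN. In both lines the knockdown samples had the smaller Hk2 share, with no overlap. Among the phosphofructokinase subunits, the platelet-type Pfkp held 20.2% in E0771shCtrl and 35.2% in E0771-LGshCtrl, while the muscle-type Pfkm held 28.8% and 15.5%. The liver-type Pfkl was the largest share in each group. Of the HIF prolyl hydroxylases in the list, Egln3 held 84.1% in *MMTV-PyMT* tumors with C44, 48.6% in E0771shCtrl and 25.6% in E0771-LGshCtrl. Differences in share were not tested.

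**Figure D2:**
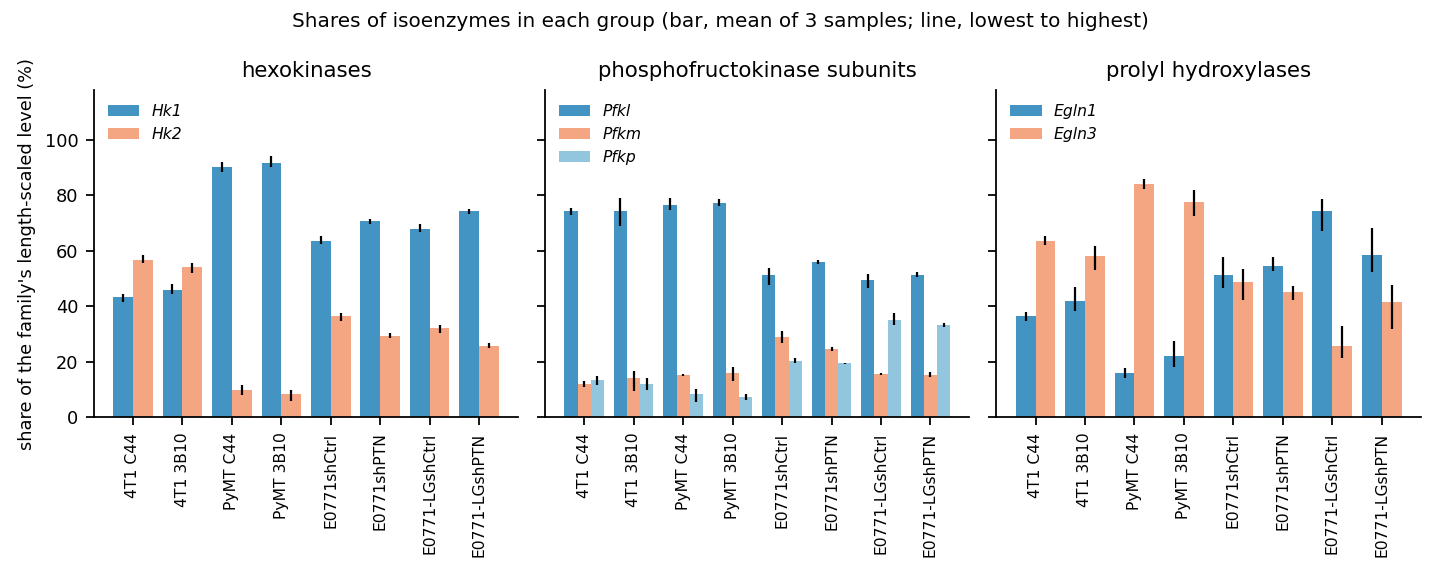
Share of each isoenzyme in the summed level per length of the listed genes of its family (percent), as the mean of 3 samples (bars) with the lowest and highest sample (lines), in the 8 groups, with the 4T1 bars on that model's own scale and not for comparison with the others. Hk2 holds 36.6% in E0771shCtrl and 29.1% in E0771shPTN, and Pfkp holds 35.2% in E0771-LGshCtrl against 20.2% in E0771shCtrl.

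Gapdh, the glyceraldehyde 3-phosphate dehydrogenase gene, had values that set it apart in the cells. It was also low in 4T1 tumors, though not alone there. In both 4T1 groups it was the lowest of the 34 members, at mean log2 values of 2.71 with C44 and 2.41 with 3B10, where Ldha was at 10.04 in both. Per length, Pgk1, Pgam1 and Eno1 ranked 20, 22 and 16 of the 34 in 4T1 tumors with C44. They ranked 4, 10 and 6 in *MMTV-PyMT* tumors with C44 and 7, 6 and 4 in E0771shCtrl. In the cells its log2 CPM was 4.28, 4.00 and 7.79 in E0771shCtrl, 3.58, 7.25 and 3.64 in E0771shPTN, 8.63, 7.18 and 8.40 in E0771-LGshCtrl, and 7.41, 4.05 and 3.99 in E0771-LGshPTN. High and low samples occurred together in every group but E0771-LGshCtrl, where all lay at 7.18 or above. Gapdh was not called by limma between the lines (2.72, adjusted p = 0.122) or in the E0771-LG knockdown (−2.92, adjusted p = 0.105). Tpi1 and Pgk1, whose enzymes act beside that of Gapdh, stayed between 9.13 and 10.66 in all 12 cell samples. The annotation lists 2 copies named after Gapdh, and 2 each for Aldoa, Pgk1, Pgam1 and Ldha. Only copies that carry the gene's own name with a pseudogene suffix were counted. Copies under other names are missed, so the counts do not show that Gapdh has no more copies than the others. The part of such copies in the Gapdh values was not tested.

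E0771-LG against E0771 asks how the metastasis-derived line differs from E0771, here in cells with the control vector. By the study's methods the lines were gifts from different laboratories, and each was selected separately. An effect of metastatic origin therefore cannot be told apart from one of stock, culture or selection. The lung-derived cells had more mRNA of Ldha, of the phosphofructokinase subunit Pfkp and of the secreted peptide gene Adm, and less of the mitophagy receptor genes Bnip3 and Bnip3l, of Pdk1 and of Egln3. Of 33 members tested, 6 were higher and 8 lower, against 19.2% of all 10411 genes tested called higher and 35.3% called lower. The median log2 difference was 0.00 over the members and −0.15 over all genes. That shift of all genes depends on scaling: 35.3% of the called genes were higher as deposited, 50.2% after centring on the median ratio and 51.5% after quantile normalization. The members' median was 0.15 after centring and −0.07 after quantile normalization. The members called were 8 higher and 7 lower after centring and 5 higher and 11 lower after quantile normalization, so the balance of directions depends on scaling too, and the differences that follow are as deposited.

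Pfkp had 7.64, 7.85 and 7.79 log2 CPM in E0771shCtrl and 8.62, 9.0 and 8.63 in E0771-LGshCtrl. The groups did not overlap, and the log2 difference was 0.99 (SE 0.12, adjusted p = 9.45e-05). Its sister subunit gene Pfkm had 6.10, 6.40 and 6.30 against 5.36, 5.85 and 5.48. All 3 E0771-LGshCtrl samples were the lower ones, by −0.70 (SE 0.14, adjusted p = 0.00213). Ldha had 11.10, 10.93 and 11.06 in E0771shCtrl and 11.55, 11.51 and 11.35 in E0771-LGshCtrl, again without overlap. It was higher by 0.44 (SE 0.093, adjusted p = 0.00272), and a fit of all 24 samples together ended that call and those of Gpi1, Hk1, Vegfa and P4ha1. The calls of Gpi1, Hk1 and P4ha1 also ended without trend and robust settings in eBayes, and those of Hk1 and P4ha1 without the filter. Gpi1 and Hk1, for the enzymes that handle glucose 6-phosphate and glucose, were higher by 0.28 and 0.35 (adjusted p = 0.0277 and 0.0314). Neither of these calls held under quantile normalization. Without E0771shCtrl 1, 2 or 3 or E0771-LGshCtrl 2, the adjusted p of Gpi1 was between 0.068 and 0.0957, and without E0771shCtrl 1 or 3 or E0771-LGshCtrl 2 or 3 that of Hk1 was between 0.083 and 0.111.

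Pdk1, whose kinase inhibits pyruvate dehydrogenase, had 6.79, 7.14 and 6.93 log2 CPM in E0771shCtrl and 5.33, 5.75 and 5.24 in E0771-LGshCtrl. The gap between the groups was wider than the range within either, with a log2 difference of −1.51 (SE 0.15, adjusted p = 3.09e-05), the lowest adjusted p of the 33 members here. Hif1a, for the oxygen-sensitive subunit of HIF-1, had 8.70, 8.91 and 8.69 against 8.73, 8.88 and 8.61. The groups overlapped and the difference was −0.03 (adjusted p = 0.846), or 0.12 after centring. Egln3, for a prolyl hydroxylase that is itself a HIF target, had 6.52, 6.88 and 6.78 in E0771shCtrl and 5.29, 5.85 and 5.23 in E0771-LGshCtrl. It was lower in all 3 E0771-LGshCtrl samples, by −1.27 (SE 0.17, adjusted p = 0.000231). The glucose transporter gene Slc2a1 had 7.49, 7.90 and 7.78 against 7.57, 7.90 and 7.34. These groups overlapped, at −0.12 (adjusted p = 0.537), or 0.03 after centring.

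Among the mitochondrial targets, Bnip3l, for a mitophagy receptor, had 7.0, 7.18 and 7.11 log2 CPM in E0771shCtrl and 6.27, 6.53 and 6.15 in E0771-LGshCtrl. It was lower without overlap, by −0.78 (SE 0.12, adjusted p = 0.000327). Its relative Bnip3 had 5.38, 5.68 and 5.69 against 3.95, 4.79 and 3.21, and was lower by −1.60 (SE 0.37, adjusted p = 0.0097). Higd1a, for a hypoxia-induced protein of the inner mitochondrial membrane, was not called (−0.24, adjusted p = 0.486). Adm encodes adrenomedullin, a peptide that widens vessels, and had 3.94, 2.98 and 3.06 in E0771shCtrl against 5.35, 4.84 and 5.01 in E0771-LGshCtrl. It was higher in every E0771-LGshCtrl sample, by 1.74 (SE 0.26, adjusted p = 0.000533). Vegfa had 6.01, 5.94 and 6.08 against 4.91, 5.84 and 4.96. All 3 E0771-LGshCtrl samples lay below E0771shCtrl, E0771-LGshCtrl 2 only narrowly, with a difference of −0.77 (SE 0.23, adjusted p = 0.0227).

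Ddit4, for an inhibitor of mTOR signaling, had 5.01, 5.01 and 5.54 log2 CPM in E0771shCtrl and 5.78, 6.97 and 6.35 in E0771-LGshCtrl. It was higher in each E0771-LGshCtrl sample, by 1.18 (SE 0.31, adjusted p = 0.0157), with an adjusted p of 0.0642 without E0771shCtrl 1. Mxi1, for an antagonist of MYC, was lower by −0.64 (SE 0.17, adjusted p = 0.0115), and P4ha1, for a collagen prolyl hydroxylase, by −0.46 (SE 0.15, adjusted p = 0.025, groups overlapping). The P4ha1 call was lost after centring. Without E0771shCtrl 2 or 3 or E0771-LGshCtrl 1 or 3 its adjusted p lay between 0.0635 and 0.101, and without E0771shCtrl 1 or 3 or E0771-LGshCtrl 1 or 3 that of Vegfa lay between 0.0593 and 0.0675.

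The same comparison in shPTN cells uses other samples. There 16 of 33 members (48.5%) were called, 6 higher and 10 lower, against 26.2% of all 10508 genes tested called higher and 37.7% called lower (63.9% in all). Of the members, 10 of these 16 were among the 14 called in the shCtrl cells, all 10 in the same direction. That is 71.4% of the 14 and 62.5% of the 16, against 64.5% and 55% over all 10362 genes tested in both. Pdk1 (−1.96, adjusted p = 2.9e-07), Pfkp (0.95, adjusted p = 1.16e-05) and Bnip3l (−0.82, adjusted p = 1.8e-05) were called in both. Adm was not (−0.19, SE 0.20, adjusted p = 0.426), and neither were Egln3 (−0.44, adjusted p = 0.0962), Vegfa (−0.18, adjusted p = 0.377) and Hk1 (0.07, adjusted p = 0.625). Ndrg1, a hypoxia-induced gene linked to restrained metastasis, was called only in the shPTN cells (1.44, adjusted p = 9.93e-06, against 0.15, adjusted p = 0.582 in the shCtrl cells), and its interaction term was tested below. Called only there as well were Hif1a (−0.50, adjusted p = 0.00113), Pgam1 (−0.49, adjusted p = 0.000433), Kdm3a (−0.47, adjusted p = 0.00144), Higd1a (0.62, adjusted p = 0.00691) and Pfkfb3 (−0.39, adjusted p = 0.0118). A call in only 1 of the 2 comparisons does not show that the line difference itself differed, which the interaction term tests. By that term it was not shown to differ for Higd1a (0.86, adjusted p = 0.088), Egln3 (0.83, adjusted p = 0.0642), Hk1 (−0.28, adjusted p = 0.254) or Vegfa (0.59, adjusted p = 0.183).

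Cell markers differed between the lines as well. Adipocyte markers, 3 of 8 in the table, had a summed CPM of 1.8, 1.66 and 2.71 in E0771shCtrl and 18.7, 26.8 and 17.1 in E0771-LGshCtrl, with Fabp4 the most abundant, Lpl at the floor in E0771-LGshCtrl and both tested markers higher. Leukocyte markers, 12 of 14, had 18.1, 28.9 and 22.8 (most abundant Cd68) against 91.5, 87 and 91.1 (Laptm5), with Itgam, Cd3e, Cd3g and Tyrobp at the floor in both groups, and 1 of 3 tested was higher and 2 lower. Epithelial markers, 10 of 10, had 99.4, 114 and 107 against 158, 204 and 164, with Krt8 the most abundant, Krt19, Krt5, Cldn3 and Cldn4 at the floor in both groups and both tested markers higher. Of 5 endothelial markers tested 1 was higher and 3 lower, with sums of 236, 255 and 245 against 241, 230 and 220, Eng the most abundant and Emcn at the floor in E0771-LGshCtrl. Neutrophil markers, 8 of 10, had 6.15, 10.4 and 8.55 (S100a8) against 22.6, 31 and 30.6 (Mmp9), with S100a9, Csf3r, Retnlg and G0s2 at the floor in both groups and 1 of 2 tested higher. Of 4 fibroblast markers tested 2 were higher and 2 lower, and of 4 muscle markers 1 was higher and 2 lower. The part of these differences in the results was not tested.

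HIF binds the core words ACGTG and GCGTG of the hypoxia response element. In RefSeq promoter windows of 300 bases around a start in GRCm38.p6, most of each before it, 32 of the 35 genes were matched, with 50 windows in all. ACGTG, on either strand, was present in 28 of the 50 windows (56%) and in 19.6% of all 32851 windows of that length. GCGTG was present in 27 of 50 (54%) and in 32.4% of all windows. Either word was present in 39 of 50 (78%) and in 43.8% of all. Counted by gene, 30 of 32 (93.8%) held either word in some window, against 46.7% of all 27025 genes, a count that favors genes with more windows, and the members had more windows per gene. The E-box CACGTG, the word of MYC and its antagonists, contains ACGTG on both strands and was present in 5 of the 50 windows (10%) and in 7.15% of all. Some windows of a gene overlap, as for Eno1, Aldoa, Pfkm, Kdm3a and Mxi1, so the 50 windows are not separate and some words count more than once. All windows were not matched to the members for base content or expression, and the members were listed as glycolysis genes and known hypoxia targets. The shares are thus no test of enrichment. A word in a window is a description and not a bound site. Below are the windows of 3 genes higher and 3 lower in E0771-LGshCtrl, picked after their values were seen and so not typical of the members, each with the window that held the most words. Bases are given on the strand of the gene, with ACGTG or GCGTG of either strand, and CACGTG, in capitals.
Pfkp (chr13:6648722-6649021, minus strand): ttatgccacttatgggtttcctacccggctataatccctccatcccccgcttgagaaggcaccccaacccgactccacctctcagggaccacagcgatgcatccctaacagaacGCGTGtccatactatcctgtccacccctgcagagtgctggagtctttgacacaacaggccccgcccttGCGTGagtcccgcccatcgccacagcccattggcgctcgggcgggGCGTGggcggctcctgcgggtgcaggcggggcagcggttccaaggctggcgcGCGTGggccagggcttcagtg
Ldha (chr7:46845554-46845853, plus strand): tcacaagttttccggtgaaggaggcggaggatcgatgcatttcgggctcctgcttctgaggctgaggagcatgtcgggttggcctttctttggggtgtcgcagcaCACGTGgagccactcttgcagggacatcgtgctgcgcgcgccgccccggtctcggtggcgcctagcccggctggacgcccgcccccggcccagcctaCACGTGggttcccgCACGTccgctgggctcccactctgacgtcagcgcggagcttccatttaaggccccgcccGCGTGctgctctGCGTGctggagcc
Adm (chr7:110627407-110627706, plus strand): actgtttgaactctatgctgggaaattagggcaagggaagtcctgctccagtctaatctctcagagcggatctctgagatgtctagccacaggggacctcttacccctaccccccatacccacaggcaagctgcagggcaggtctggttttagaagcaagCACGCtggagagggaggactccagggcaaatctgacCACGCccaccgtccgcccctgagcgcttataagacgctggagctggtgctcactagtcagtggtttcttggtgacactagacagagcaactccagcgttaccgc
Pdk1 (chr2:71872974-71873273, plus strand): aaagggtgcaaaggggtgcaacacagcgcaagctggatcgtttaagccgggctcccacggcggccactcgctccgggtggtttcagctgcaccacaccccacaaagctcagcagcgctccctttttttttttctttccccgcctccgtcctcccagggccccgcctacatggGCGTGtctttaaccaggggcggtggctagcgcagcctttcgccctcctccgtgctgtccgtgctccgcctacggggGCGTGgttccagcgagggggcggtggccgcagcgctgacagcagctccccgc
Bnip3 (chr7:138909457-138909756, minus strand): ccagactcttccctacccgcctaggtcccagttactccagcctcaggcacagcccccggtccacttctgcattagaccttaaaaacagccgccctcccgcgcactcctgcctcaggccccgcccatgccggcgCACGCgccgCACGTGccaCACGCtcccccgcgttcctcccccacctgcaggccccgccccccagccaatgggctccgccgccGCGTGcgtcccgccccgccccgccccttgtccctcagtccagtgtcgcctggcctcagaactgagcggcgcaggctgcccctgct
Egln3 (chr12:54203825-54204124, minus strand): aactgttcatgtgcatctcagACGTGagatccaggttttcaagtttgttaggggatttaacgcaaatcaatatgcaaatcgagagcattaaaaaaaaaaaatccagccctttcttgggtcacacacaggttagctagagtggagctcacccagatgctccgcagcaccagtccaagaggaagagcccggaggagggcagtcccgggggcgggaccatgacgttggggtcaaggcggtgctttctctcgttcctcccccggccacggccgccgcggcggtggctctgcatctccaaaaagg
Words were counted on both strands, so each E-box gives 2 ACGTG words at a single site and is not additional to them. Counted so, the Ldha window held 7 words, with 2 E-boxes among them, and the Pfkp window 4 words, all GCGTG. The Bnip3 window held 5 words, with 1 E-box among them, while Adm and Pdk1 each held 2 words and Egln3 held 1. The word counts of Ldha and Bnip3 are thus larger than their numbers of sites. Ldha and Pdk1 each have a further window, with 2 words and 0 words, and Gpi1, also called higher, had 0 in its only window.

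Of the other glycolysis genes, 4 of 20 tested were higher and 8 lower, beside the 19.2% and 35.3% of all genes, and the lists that follow stand beside the same shares. The high-affinity glucose transporter gene Slc2a3 was higher by 1.37 (SE 0.13, adjusted p = 2.49e-05) and the lactate transporter gene Slc16a1 by 0.65 (SE 0.099, adjusted p = 0.000385). The enolase gene Eno2 was lower by −3.18 (SE 0.36, adjusted p = 0.000108), and Bpgm, for bisphosphoglycerate mutase, by −1.57 (SE 0.14, adjusted p = 1.63e-05). Of the other hypoxia and HIF genes, 13 of 43 were higher, among them Stc1 (2.28, adjusted p = 0.000154), and 11 were lower, among them the creatine transporter gene Slc6a8 (−1.59, adjusted p = 2.29e-06). For pyruvate entry and the TCA cycle 2 of 31 were higher and 10 lower, including Pdha1, a subunit of pyruvate dehydrogenase (−0.81, adjusted p = 4.38e-05), and its kinase gene Pdk2 (−3.62, adjusted p = 0.000122). In the pentose phosphate pathway 1 of 10 was higher and 7 lower, including G6pdx, its entry enzyme (−0.75, adjusted p = 0.000108). Of 10 other transcription factors of glycolytic genes 4 were higher and 2 lower. Ppargc1a, a coactivator of mitochondrial genes, was higher by 5.83 (SE 0.45, adjusted p = 7.48e-06) and Myc by 0.54 (SE 0.097, adjusted p = 0.00111).

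**Figure D3:**
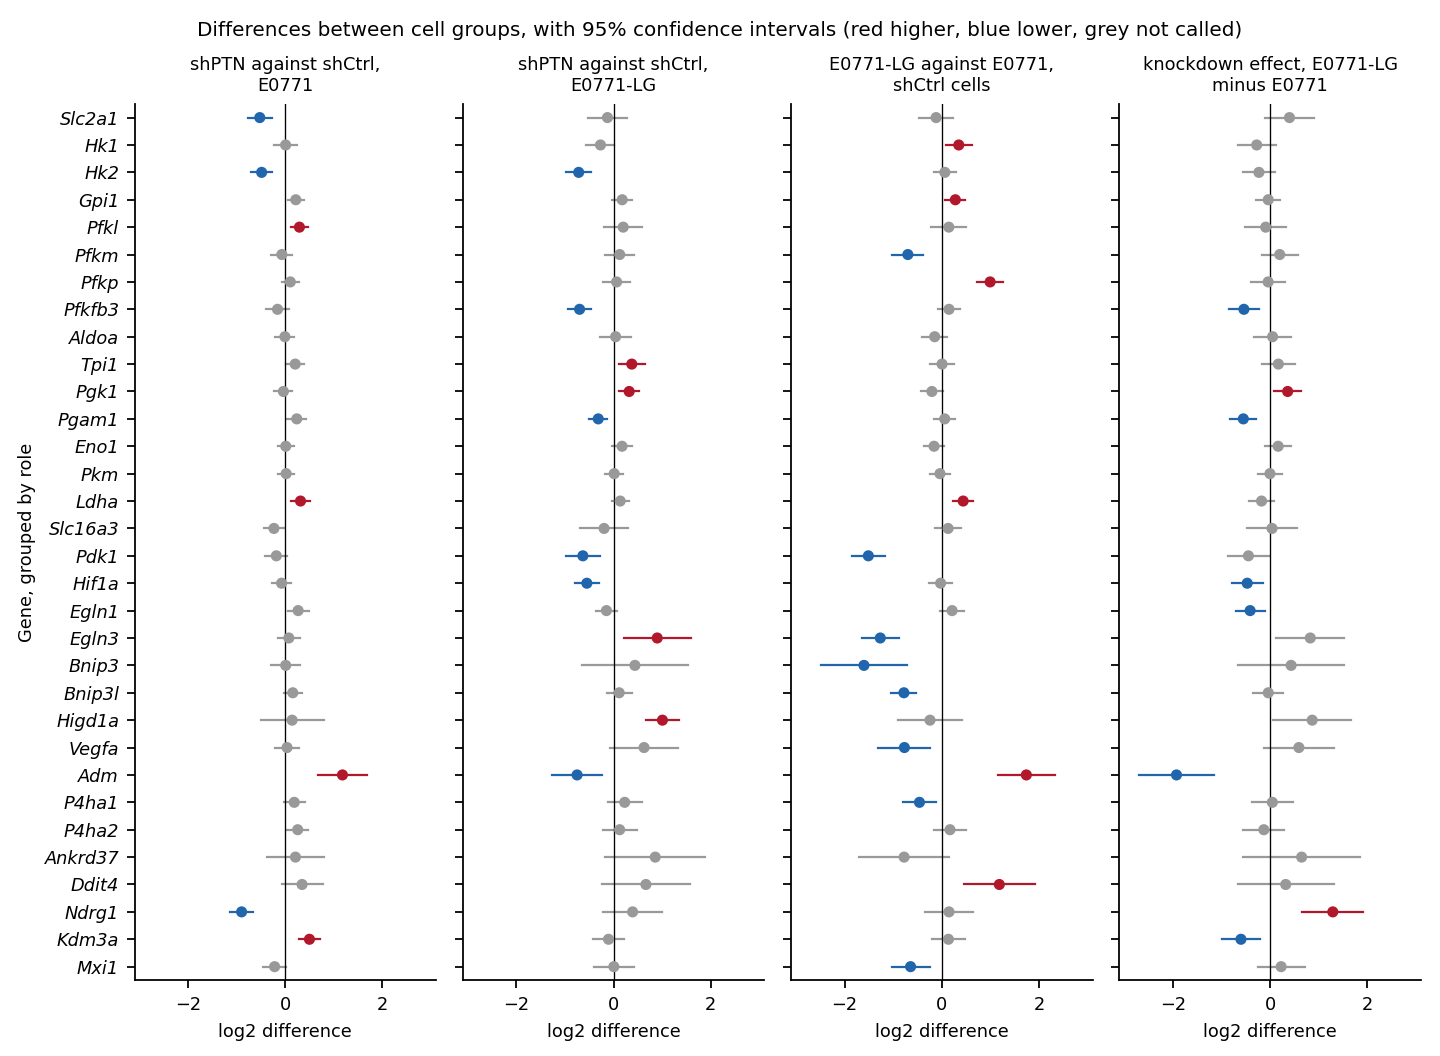
Log2 differences with 95% confidence intervals for 32 members in the 4 comparisons of cells, each from 3 samples per group, red where called higher, blue where called lower and grey where not called. Adm is called in all 4 panels, and Gapdh, with intervals wider than the axis, is left out.

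In E0771 cells with PTN knockdown, 2 of the 4 genes of glucose uptake and the first hexose steps fell, Slc2a1 and Hk2. Hk1, the larger share of the pair Hk1 and Hk2, was at 0.01 (adjusted p = 0.976) and Gpi1 was not called (0.22, adjusted p = 0.0661). Ldha, the phosphofructokinase subunit gene Pfkl, Adm and the histone demethylase gene Kdm3a rose, and Ndrg1 fell. Of 33 members tested, 4 were called higher and 3 lower, against 8.89% and 11.7% of all 10394 genes tested, which is 21.2% of the members and 20.6% of all genes. The median log2 difference was 0.04 over the members and −0.03 over all genes. The knockdown and the line comparisons share the control samples E0771shCtrl and E0771-LGshCtrl, so their values are not independent.

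Slc2a1 had 7.49, 7.90 and 7.78 log2 CPM in E0771shCtrl and 7.33, 7.11 and 7.15 in E0771shPTN. All 3 E0771shPTN samples were the lower ones, and Slc2a1 fell by 0.53 (SE 0.11, adjusted p = 0.00832). Hk2 had 6.77, 6.84 and 6.78 against 6.13, 6.47 and 6.33. It fell by 0.49 in the same way, without overlap (SE 0.099, adjusted p = 0.00636). Pfkl had 8.10, 8.01 and 8.17 in E0771shCtrl and 8.36, 8.41 and 8.38 in E0771shPTN. It rose by 0.29 with no overlap (SE 0.078, adjusted p = 0.0234). Ldha had 11.10, 10.93 and 11.06 against 11.45, 11.32 and 11.26. It rose by 0.31 in all 3 samples (SE 0.087, adjusted p = 0.0271). Without E0771shCtrl 1, 2 or 3 or E0771shPTN 3 the adjusted p of Pfkl lay between 0.0534 and 0.0967, and without E0771shCtrl 2 or 3 or E0771shPTN 1 or 3 that of Ldha lay between 0.0564 and 0.118. None of the 7 aldolase to pyruvate kinase genes tested was called by limma. At an unadjusted p under 0.05, 2 of them were higher and 0 lower, against 1504 higher and 2037 lower of all 10394 genes.

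Ndrg1 had 6.34, 6.72 and 6.55 log2 CPM in E0771shCtrl and 5.69, 5.58 and 5.67 in E0771shPTN. The groups lay far apart, and Ndrg1 fell by 0.90 (SE 0.11, adjusted p = 0.00041). Adm had 3.94, 2.98 and 3.06 against 4.49, 4.54 and 4.49. The E0771shPTN values were close together and above all E0771shCtrl values, with a rise of 1.18 (SE 0.23, adjusted p = 0.00525). Kdm3a, for a demethylase of histone H3 lysine 9, had 6.35, 6.18 and 6.06 against 6.61, 6.77 and 6.70, and rose by 0.50 (SE 0.098, adjusted p = 0.00559). Hif1a had 8.70, 8.91 and 8.69 in E0771shCtrl and 8.62, 8.70 and 8.74 in E0771shPTN. These values overlapped, at −0.08 (adjusted p = 0.573). Vegfa had 6.01, 5.94 and 6.08 against 6.11, 5.82 and 6.2, with overlap and a difference of 0.04 (adjusted p = 0.856). In a fit of all 24 samples together, which also takes in the spread of the tumors, none of the 7 calls held. Without trend and robust settings in eBayes, those of Pfkl and Ldha did not hold.

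Of the other glycolysis genes in E0771, 3 of 20 rose and 3 fell, to be set, like the lists that follow, beside the 8.89% and 11.7% of all genes. Ldhb, for the lactate dehydrogenase subunit that favors pyruvate, rose by 2.46 (SE 0.31, adjusted p = 0.000525), and Pgm2l1 fell by 0.69 (SE 0.13, adjusted p = 0.00391). Of 43 other hypoxia and HIF genes 8 rose and 4 fell. The collagen crosslinking enzyme gene Loxl2 rose by 2.51 (SE 0.14, adjusted p = 2.34e-06), and Arnt, for the partner subunit of HIF-1α, fell by 0.56 (SE 0.088, adjusted p = 0.00174). For pyruvate entry and the TCA cycle 1 of 31 rose and 6 fell, with Idh2 lower by −0.76 (SE 0.10, adjusted p = 0.000851). In the pentose phosphate pathway Tkt, for transketolase, rose by 0.46 (SE 0.075, adjusted p = 0.00224) as 1 of 10, with 0 lower. At an unadjusted p under 0.05, 1 of the 10 was lower, against 2037 of all 10394 genes. Of 9 other transcription factors of glycolytic genes 1 rose and 2 fell, among them Myc (−0.51, SE 0.091, adjusted p = 0.00345). Fibroblast markers moved with the knockdown: 9 of 10 are in the table, their summed CPM was 74.8, 101 and 86.5 in E0771shCtrl and 331, 293 and 330 in E0771shPTN, and all 5 tested rose. The most abundant was Col3a1 in E0771shPTN, and Lum and Thy1 were at the floor in E0771shCtrl. Leukocyte markers had 18.1, 28.9 and 22.8 against 57.4, 44.6 and 51.3, with 2 of 3 tested higher, Lyz2 the most abundant in E0771shPTN, and Itgam, Cd3e, Cd3g and Tyrobp at the floor in both groups. Skeletal muscle markers, 10 of 17 in the table, had 8.52, 11.9 and 11.9 against 26.5, 21.9 and 25.7, with Actn3 the most abundant, Myh4 at the floor in both groups and 2 of 3 tested higher. Their part in the results was not tested.

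**Figure D4:**
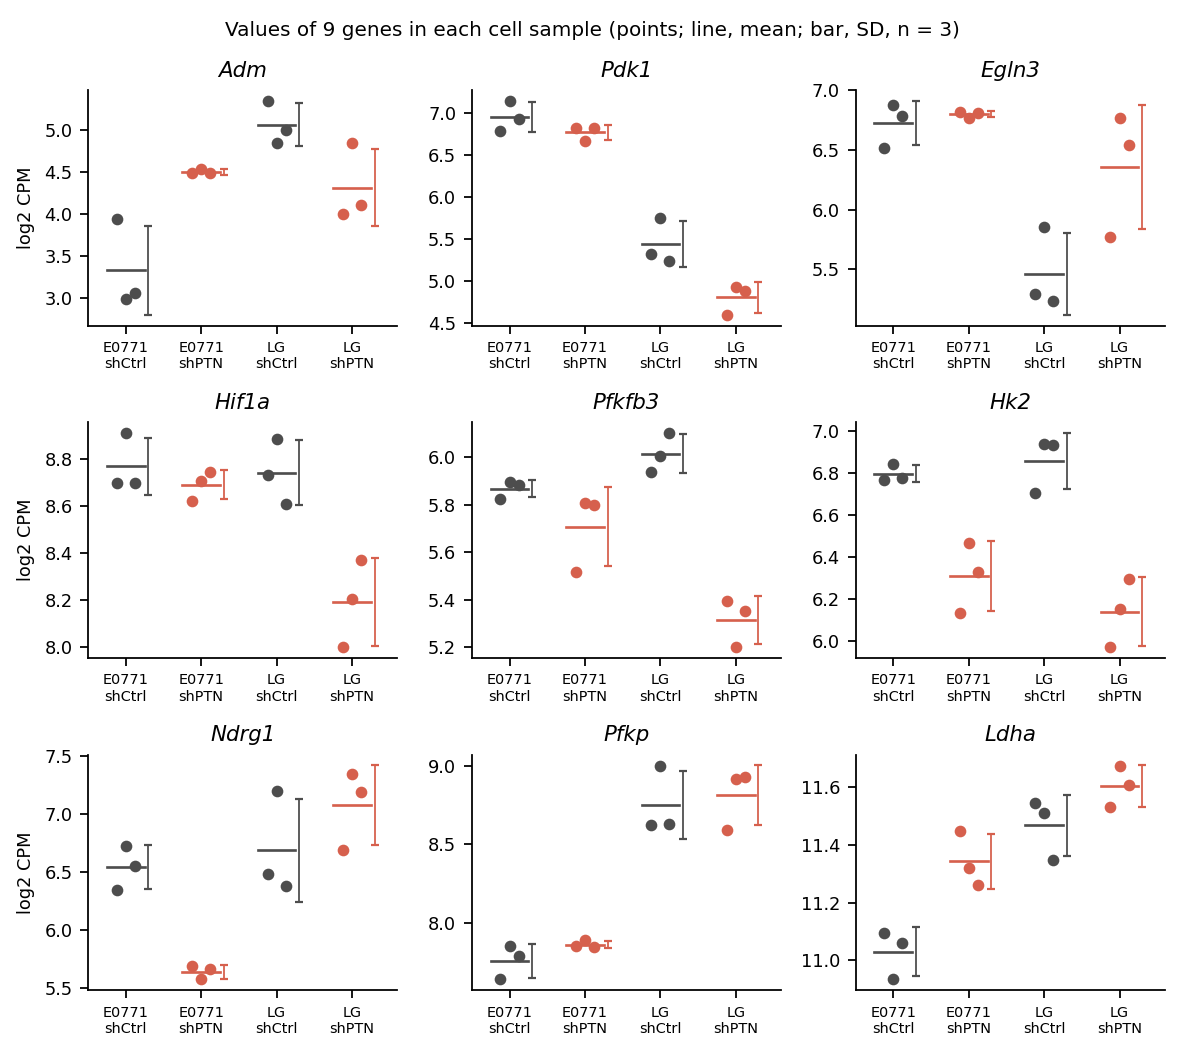
Log2 CPM of 9 members in each of the 12 cell samples (points), with the mean (line) and SD (bar) of each group of 3. Adm lies between 4.49 and 4.54 in E0771shPTN, above E0771shCtrl, and between 4.00 and 4.85 in E0771-LGshPTN, mostly below E0771-LGshCtrl.

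In E0771-LG cells, PTN knockdown went with less mRNA of Hif1a itself, of Hk2, of Pdk1 and of Pfkfb3, whose product makes the activator of phosphofructokinase. Higd1a, Egln3, Pgk1 and Tpi1 rose, and Pgam1 and Adm fell. Of 33 members tested, 4 were called higher and 6 lower, against 24.3% and 22.1% of all 10405 genes tested. The share called was thus lower among the members (30.3%) than among all genes (46.4%). The median log2 difference was 0.12 over the members and 0.05 over all genes.

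Hk2 had 6.70, 6.94 and 6.93 log2 CPM in E0771-LGshCtrl and 5.97, 6.15 and 6.30 in E0771-LGshPTN. It fell by 0.72 with no overlap (SE 0.12, adjusted p = 0.000705), so that Hk2 was lower in 6 of 6 knockdown samples of both lines. Pfkfb3 had 5.94, 6.00 and 6.10 against 5.40, 5.2 and 5.35. The E0771-LGshPTN samples formed a separate lower group, and Pfkfb3 fell by 0.70 (SE 0.11, adjusted p = 0.000568). Pgk1, for the first ATP-yielding enzyme of the pathway, had 9.22, 9.41 and 9.13 against 9.50, 9.64 and 9.59, and rose by 0.32 (SE 0.095, adjusted p = 0.0175). Tpi1 had 10.06, 10.35 and 9.98 against 10.28, 10.66 and 10.57. E0771-LGshPTN 1 lay below E0771-LGshCtrl 2, so these groups overlapped, with a rise of 0.37 (SE 0.12, adjusted p = 0.0283). Pgam1, for the mutase between them and enolase, fell by 0.32 (SE 0.086, adjusted p = 0.0117). The calls of Pgk1 and Tpi1 were lost under quantile normalization, and those of Pgk1, Tpi1, Pgam1 and Adm in a fit of all 24 samples together. Pgk1 and Tpi1 were also lost without trend and robust settings in eBayes, and Tpi1 and Adm without the filter.

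Pdk1 had 5.33, 5.75 and 5.24 log2 CPM in E0771-LGshCtrl and 4.60, 4.94 and 4.89 in E0771-LGshPTN. It fell by 0.63 without overlap (SE 0.16, adjusted p = 0.00771). Hif1a had 8.73, 8.88 and 8.61 against 8.0, 8.2 and 8.37. Each E0771-LGshPTN sample was below each E0771-LGshCtrl sample, and Hif1a fell by 0.55 (SE 0.11, adjusted p = 0.0028). Egln3 had 5.29, 5.85 and 5.23 against 5.77, 6.76 and 6.54. E0771-LGshPTN 1 lay just under E0771-LGshCtrl 2, and the rise was 0.90 (SE 0.29, adjusted p = 0.0402), a call that voom weights ended. Higd1a had 5.21, 5.68 and 5.80 against 6.52, 6.74 and 6.45. It rose by 1.00 in all 3 samples (SE 0.15, adjusted p = 0.000552). Adm had 5.35, 4.84 and 5.01 against 4.00, 4.85 and 4.10. E0771-LGshPTN 2 was level with E0771-LGshCtrl 2, and Adm fell by 0.75 (SE 0.23, adjusted p = 0.0228).

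Of the remaining members with values for every sample, Slc2a1 had 7.57, 7.90 and 7.34 log2 CPM in E0771-LGshCtrl and 7.14, 7.72 and 7.57 in E0771-LGshPTN, with overlap (−0.13, adjusted p = 0.59). Ldha had 11.55, 11.51 and 11.35 against 11.53, 11.68 and 11.61, with overlap (0.14, adjusted p = 0.188). Vegfa had 4.91, 5.84 and 4.96 against 5.46, 6.19 and 5.94, with overlap and a 95% interval from −0.07 to 1.33. None of these was called. The count of 10 fell to 6 (1 higher and 5 lower) without E0771-LGshCtrl 3, E0771-LGshPTN 2 or E0771-LGshPTN 3, and was 15 (9 higher and 6 lower) without E0771-LGshCtrl 2, where Vegfa too was called (0.93, adjusted p = 0.00212). The adjusted p of Egln3 lay between 0.0985 and 0.15, and that of Tpi1 between 0.0856 and 0.129, without E0771-LGshCtrl 1, E0771-LGshCtrl 3, E0771-LGshPTN 2 or E0771-LGshPTN 3. That of Pgk1 lay between 0.0673 and 0.083 without E0771-LGshCtrl 3, E0771-LGshPTN 2 or E0771-LGshPTN 3, and that of Pgam1 was 0.0527 without E0771-LGshPTN 2. That of Adm lay between 0.0536 and 0.0853 without E0771-LGshCtrl 1, E0771-LGshCtrl 3, E0771-LGshPTN 1 or E0771-LGshPTN 3.

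Among the other glycolysis genes in E0771-LG, 6 of 20 rose and 5 fell, where 24.3% and 22.1% of all genes did. Ldhb rose by 2.71 (SE 0.56, adjusted p = 0.00338) and Bsg, for the chaperone of lactate transporters, by 0.88 (SE 0.13, adjusted p = 0.000373), while the transporter gene Slc16a1 fell by 0.54 (SE 0.096, adjusted p = 0.00123). Of 42 other hypoxia and HIF genes 9 rose and 8 fell. Loxl2 rose by 1.2 (SE 0.19, adjusted p = 0.000739), and the transferrin receptor gene Tfrc fell by 1.39 (SE 0.13, adjusted p = 4.22e-05). Hif1an, for the asparagine hydroxylase that restrains HIF, fell by 0.95 (SE 0.13, adjusted p = 0.000215). For pyruvate entry and the TCA cycle 8 of 31 rose and 4 fell, among them Pdhb (0.51, adjusted p = 0.00146) and Pcx, for pyruvate carboxylase (−1.48, adjusted p = 0.000673). In the pentose phosphate pathway 3 of 10 rose and 5 fell, with Tkt higher by 1.13 (SE 0.13, adjusted p = 9.51e-05). Of 10 other transcription factors of glycolytic genes, Atf4 rose (0.76, adjusted p = 0.000294) and 5 fell, among them Ppargc1a (−2.88, adjusted p = 4.36e-05). Epithelial markers, all 10 of them in the table, had a summed CPM of 158, 204 and 164 in E0771-LGshCtrl and 424, 565 and 516 in E0771-LGshPTN. All 3 tested rose, Krt8 was the most abundant, and Cldn3, Cldn4 and Elf5 were at the floor in both groups. Adipocyte markers had 18.7, 26.8 and 17.1 against 1.52, 4.54 and 3.73, with Fabp4 the most abundant and both tested markers lower. Leukocyte sums were 91.5, 87 and 91.1 against 53, 58.7 and 61.7, with Laptm5 the most abundant, Adgre1 and Tyrobp at the floor in both groups, and 2 of 3 tested higher and 1 lower. Endothelial sums were 241, 230 and 220 against 173, 186 and 178 (Eng), with 2 of 6 tested higher and 1 lower. Fibroblast sums were 92, 145 and 107 against 58.3, 66.3 and 73.8 (Pdgfra), with Thy1 at the floor in both groups, 1 of 6 tested higher and 2 lower. Neutrophil sums were 22.6, 31 and 30.6 against 11.7, 17.6 and 14.4 (Mmp9), with S100a9, Csf3r and Retnlg at the floor in both groups and 1 of 2 tested lower. Their part in the results was not tested.

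The interaction term asks whether the knockdown effect differed between the lines. Among the called members the largest differences were those of Adm and Ndrg1: Adm rose in E0771 and fell in E0771-LG, and Ndrg1 fell in E0771 and was 0.39 higher in E0771-LG without a call (adjusted p = 0.251). Of 33 members, 2 had a higher and 6 a lower effect in E0771-LG, against 18.3% and 15.7% of all 10600 genes tested. The members' median difference was 0.00 and that of all genes 0.08. Gapdh had a larger difference than either, −2.39, with a spread that left it uncalled (SE 2.08, adjusted p = 0.407).

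The difference was −1.93 for Adm (SE 0.36, adjusted p = 0.00165) and 1.29 for Ndrg1 (SE 0.29, adjusted p = 0.00544). For Pgam1 it was −0.55 (SE 0.12, adjusted p = 0.004), from 0.24 in E0771 and −0.32 in E0771-LG. For Pfkfb3 it was −0.54 (SE 0.15, adjusted p = 0.0119), from −0.16 and −0.70, and for Hif1a −0.47 (SE 0.15, adjusted p = 0.0238), from −0.08 and −0.55. For Kdm3a it was −0.60 (SE 0.19, adjusted p = 0.0228), from 0.50 and −0.10. Egln1, for the main oxygen sensor of the HIF pathway, differed by −0.41 (SE 0.14, adjusted p = 0.0337), and Pgk1 by 0.36 (SE 0.13, adjusted p = 0.0414). The Hk2 effects were not shown to differ (−0.23, adjusted p = 0.26, 95% interval from −0.56 to 0.10), nor those of Slc2a1 (0.40, adjusted p = 0.194), Ldha (−0.18, adjusted p = 0.273) and Vegfa (0.59, adjusted p = 0.183). Ptn itself did not differ beyond its spread either (−0.30, adjusted p = 0.651).

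The count of 8 was 4 without E0771shCtrl 3 and 5 without E0771shPTN 3, E0771-LGshCtrl 3, E0771-LGshPTN 2 or E0771-LGshPTN 3. It was 10 (4 higher and 6 lower) without E0771-LGshCtrl 2, where the Vegfa difference was called (0.89, adjusted p = 0.00835), and that of Slc2a1 was called without E0771-LGshPTN 1 (0.57, adjusted p = 0.049). The adjusted p of Hif1a lay between 0.0555 and 0.0642 without E0771shCtrl 1, E0771shCtrl 3, E0771shPTN 3 or E0771-LGshPTN 1, and that of Kdm3a between 0.0559 and 0.0647 without E0771shCtrl 3, E0771-LGshCtrl 3, E0771-LGshPTN 2 or E0771-LGshPTN 3. Those of Egln1 and Pgk1 passed 0.05 on leaving out 9 of the 12 samples, every one but E0771shCtrl 1, E0771shPTN 1 and E0771-LGshCtrl 2 for Egln1 and every one but E0771shPTN 1, E0771-LGshCtrl 2 and E0771-LGshPTN 1 for Pgk1, with values up to 0.0823 and 0.11. The calls of Hif1a and Egln1 were lost under quantile normalization and that of Pgk1 after centring, and those of Egln1 and Pgk1 without trend and robust settings in eBayes. Only the Adm call held in a fit of all 24 samples together.

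In the tumors, 3B10 against C44 asks what blocking PTN does to the tumor as a whole. No member passed the test in either model, so what follows describes values without a tested direction. Over the 34 members the log2 differences had a median of −0.21 in either model, against 0.01 and 0.05 over all genes. Below 0 were 28 of 34 in 4T1 and 31 of 34 in *MMTV-PyMT* tumors, against 48.4% of all 11467 and 39% of all 11361 genes tested. In both models 25 of 34 were below 0 and 0 above 0, against 22.1% and 35.6% of the 10888 genes tested in both. After centring, the medians were −0.22 and −0.26, and after quantile normalization −0.23 and −0.23. In 4T1 the median and the counts below 0 depend on 3B10 tumor 2. It was the lowest 4T1 sample for Aldoa (9.855), Bnip3 (5.915) and Higd1a (4.621), where 3B10 tumor 1 was the highest (10.889, 7.62 and 5.596). Without tumor 2 the sign of those members turns, and so does that of Gpi1, Pfkl, Tpi1, Pgk1, Pgam1, Bnip3l, Ankrd37, Ndrg1, Kdm3a and Mxi1. The counts of 28 in 4T1 and 25 in both models thus rest in large part on this tumor. For others, such as Hif1a and Pfkm, tumor 2 was not the lowest.

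In 4T1 tumors limma called 0 members, and 0 (0%) of all 11467 genes tested. At an unadjusted p under 0.05, 1 member was lower and 0 higher, against 3.1% and 3.17% of all genes. Every 3B10 value lay below every C44 value for 2 members and above for 0, against 4.42% and 6.87% of all genes. In *MMTV-PyMT* tumors limma called 0 members and 0 (0%) of all 11361 genes, and limma with voom weights on the recovered reads also called 0 members. At an unadjusted p under 0.05, 5 members were lower and 0 higher, against 1.18% and 1.52% of all genes. Groups did not overlap for 4 members, all lower, against 2.27% of all genes lower and 6.06% higher.

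Pfkfb3 was the member whose groups were separate in both models, and it is named after its values were seen. The share of all genes separate in both models was not counted, so this is no result about the members. Its 95% intervals are not adjusted for that choice. It had log2 values of 4.35, 4.93 and 3.83 with C44 and 3.72, 3.44 and 3.44 with 3B10 in 4T1 tumors. The highest 3B10 tumor was just below the lowest C44 tumor, and the log2 difference was −0.84 (SE 0.27, 95% interval −1.48 to −0.20, adjusted p = 0.725). In *MMTV-PyMT* tumors it had 4.89, 5.13 and 5.68 log2 CPM with C44 and 4.59, 4.58 and 4.31 with 3B10. The difference there was −0.74 (SE 0.22, 95% interval −1.26 to −0.23, adjusted p = 1). The other separate members were Ddit4 in 4T1 (−0.17, adjusted p = 0.889) and Aldoa (−0.72), Egln3 (−0.75) and Bnip3l (−0.22) in *MMTV-PyMT* tumors, each with an adjusted p of 1.

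Hif1a had log2 values of 7.58, 7.42 and 6.87 with C44 and 6.57, 7.14 and 7.14 with 3B10 in 4T1 tumors, and 6.54, 7.01 and 6.63 log2 CPM against 6.75, 6.82 and 6.69 in *MMTV-PyMT* tumors. Both pairs of groups overlapped, at −0.34 (adjusted p = 0.894) and 0.03 (adjusted p = 1), the latter −0.02 after centring. Slc2a1 had 8.12, 7.99 and 7.24 against 7.86, 6.6 and 7.49 in 4T1 tumors, and 7.01, 7.18 and 6.85 against 6.78, 7.50 and 6.85 in *MMTV-PyMT* tumors. It overlapped in both, at −0.46 (adjusted p = 0.913) and 0.03 (adjusted p = 1), the latter −0.02 after centring. Ldha had 10.35, 10.03 and 9.75 against 10.30, 9.67 and 10.16 in 4T1, and 11.07, 10.86 and 10.45 against 10.47, 11.26 and 10.31 in *MMTV-PyMT* tumors. Its groups overlapped at 0.00 (adjusted p = 0.999), below 0 after centring and quantile normalization, and at −0.11 (adjusted p = 1). Vegfa had 6.14, 6.10 and 5.25 against 5.45, 5.37 and 5.10 in 4T1, and 6.51, 6.68 and 7.18 against 5.72, 7.24 and 5.42 in *MMTV-PyMT* tumors. Groups overlapped in both models, at −0.52 (adjusted p = 0.833) and −0.66 (adjusted p = 1).

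By role, the secreted and collagen-modifying targets had the lowest medians in both models, −0.44 in 4T1 and −0.67 in *MMTV-PyMT* tumors, with 4 of 4 below 0 in each. Adm was the lowest of these, at −0.64 in 4T1 (SE 0.46) and −1.54 in *MMTV-PyMT* tumors (SE 0.63), where it had 1.60, 2.96 and 0.26 log2 CPM with 3B10 and 3.13, 2.89 and 3.45 with C44. *MMTV-PyMT* 3B10 tumor 2 lay within the C44 range. Slc16a3, the exporter of lactate, was at −0.57 (SE 0.27) and −1.26 (SE 0.63), also with overlap in both. The 8 genes from aldolase to pyruvate kinase had medians of −0.05 in 4T1 and −0.22 in *MMTV-PyMT* tumors, with 5 of 8 and 8 of 8 below 0.

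**Figure D5:**
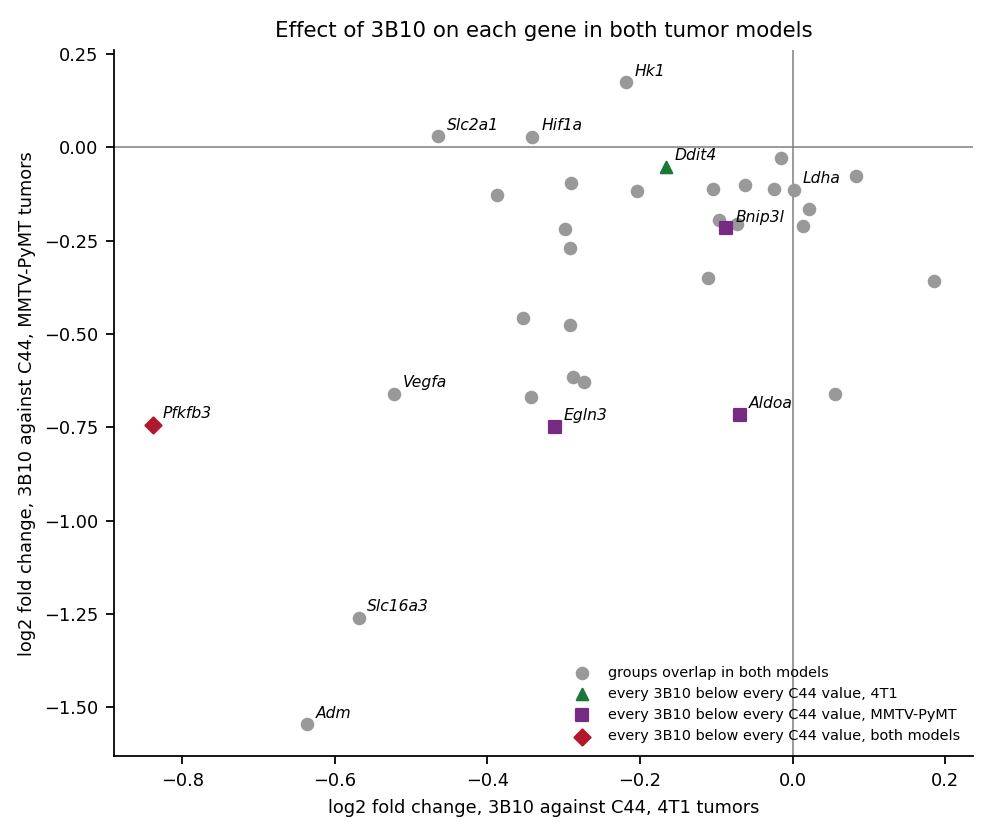
Log2 difference of 3B10 against C44 for each of the 34 genes in 4T1 tumors (x axis) and *MMTV-PyMT* tumors (y axis), from 3 tumors per group; symbols mark genes whose groups did not overlap. The point of Pfkfb3 lies at −0.84 and −0.74, and 25 of the 34 points are below 0 on both axes. That count depends on 4T1 3B10 tumor 2.

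Markers of other cells differed between the 4T1 groups, though limma called none of them. Leukocyte markers, 12 of 14 in the table, had a summed level of 10500, 7550 and 9530 with C44 and 4160, 7440 and 4830 with 3B10 off the log scale, with Lyz2 the most abundant and none at the floor. All 12 were below 0, with a median of −0.70. Skeletal muscle markers, 10 of 17 in the table, had 39.1, 38.4 and 69 with C44 and 98.1, 300 and 482 with 3B10, most abundant Tnni2 and Tnnt3, with Myh4 at the floor with C44. Epithelial markers, 10 of 10, had 3460, 3860 and 3810 against 5330, 5130 and 5400, with Krt18 the most abundant and Elf5 at the floor, and all 8 tested were above 0. Endothelial markers, 9 of 11, had 247, 462 and 321 against 260, 414 and 212, with Eng the most abundant, and all 9 were below 0, with a median of −0.22 beside the members' −0.21. Also below 0 were 7 of 8 neutrophil and 4 of 4 erythroid markers tested, while 9 of 9 muscle markers tested were above 0. Fibroblast markers had 1690, 2400 and 1500 with C44 and 1330, 4760 and 2150 with 3B10, with Col1a1 the most abundant. Of 9 fibroblast markers tested in 4T1, 7 were above 0 and 2 below, with a median of 0.26. In *MMTV-PyMT* tumors erythroid markers, 4 of 8 in the table, had a summed CPM of 1070, 436 and 34.4 with C44 and 157, 64.1 and 69.3 with 3B10, with Hba-a1 the most abundant, none at the floor and 3 of 3 tested below 0. Endothelial markers, with Pecam1 the most abundant, had 207, 249 and 154 against 221, 245 and 162, and leukocyte markers 473, 484 and 287 against 610, 305 and 341. Fibroblast markers had 2560, 3890 and 1380 against 2720, 1870 and 1930 (Col1a1), with 8 of 9 tested below 0 and a median of −0.18 beside the members' −0.21. Of the muscle markers 7 of 8 tested were below 0 (median −0.54), of the epithelial 7 of 10, and of the adipocyte markers 3 of 3 were above 0. Depth also differed, at 18.8 to 19.3 M reads with C44 and 16.3 to 18.4 M with 3B10. The part of these cells and of depth in the tumor values was not tested.

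The other lists had 0 genes called in either tumor model by limma. At an unadjusted p under 0.05 in 4T1 tumors, 1 of 21 other glycolysis genes was higher and 2 lower, 1 of 51 other hypoxia and HIF genes was higher and 1 lower, and 1 of 31 genes of pyruvate entry and the TCA cycle was higher and 0 lower. In *MMTV-PyMT* tumors, 1 of 20 other glycolysis genes was higher and 0 lower, 0 of 53 other hypoxia and HIF genes were higher and 2 lower, and 0 of 31 genes of pyruvate entry and the TCA cycle were higher or lower. The pentose phosphate and transcription factor lists had 0 in both models. For the other glycolysis genes the medians of the log2 difference were −0.02 (4T1) and 0.06 (*MMTV-PyMT*), with −0.09 and −0.12 for the other hypoxia and HIF genes, and 0.08 and 0.06 for pyruvate entry and the TCA cycle.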

How the data were processed

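RNA from 24 samples was sequenced on an Illumina HiSeq; the authors name HISAT2 and StringTie (mm10), Rsubread and edgeR, and their deposited record also lists featureCounts and limma. The table deposited by the authors holds log2 values of 12091 genes, and the step that made them is not named. In 18 samples they step like log2 CPM made after adding 0.5 reads (100% of values under 2000 reads whole within 0.02), which gives depths of 15.6 to 21.1 M reads. The 4T1 values fell with gene length against *MMTV-PyMT* values (slope −1.26, against −0.0477 for E0771), so they were taken as normalized for length. Computed here: limma 3.58.1 in R 4.3.3 (lmFit, eBayes with trend and robust, two-sided, Benjamini-Hochberg over all genes tested), each comparison on its own samples, over genes with 3 or more samples at 1 or more after undoing the log and subtracting the smallest value of that sample. The fits were tested on simulated data, and the outcome is not given here. Levels per length divide by exon length, except in 4T1. Marker sums are off the log scale, and a marker is at the floor where it is under 0.05 above the lowest value in all samples of a group. Values in every sample are given for up to 4 members per direction and comparison with the lowest adjusted p among those called, and for Hif1a, Slc2a1, Ldha and Vegfa. Those of Bnip3 and Gapdh in cells, of Adm in the E0771-LG knockdown, and of Pfkfb3 and Adm in tumors were added after the values were seen. From each other list, up to 4 genes per direction were eligible by the same order, and Pfkfb4 counts in both the glycolysis and the hypoxia list. Members and lists were chosen with earlier results of these data known. Alternatives were pseudocounts of 1 and 0.1, no filter and a stricter filter, other eBayes settings, a fit of all samples, quantile normalization, centring, voom on recovered reads, a replicate block, stricter thresholds, the line comparison in shPTN cells, leaving out each sample and, chosen after seeing the data, Ero1a counted as a member. Promoter sequences are from RefSeq on GRCm38.p6, and Bnip3l, Ndrg1 and Ero1l had none. Plots used Python 3.11.15 and matplotlib 3.10.9.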

Additional observations from a re-analysis of the deposited data

Results flagged for a closer look

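The effect of PTN knockdown differed between E0771-LG and E0771 cells by the interaction term in limma (adjusted p under 0.05 over all 10600 genes tested) for 18.3% of all genes in the higher and 15.7% in the lower direction. Given are all members called and, of each other list, up to 4 genes per direction with the lowest adjusted p. Each value is the log2 effect in E0771-LG minus that in E0771. Among the members the differences were −1.93 for Adm, 1.29 for Ndrg1, −0.60 for Kdm3a, −0.55 for Pgam1, −0.54 for Pfkfb3, −0.47 for Hif1a, −0.41 for Egln1 and 0.36 for Pgk1.

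Among the other glycolysis genes (5 of 20 tested higher, 3 lower) they were 2.20 for Eno2, 1.16 for Pfkfb4, 2.07 for Slc2a8, 0.59 for Pgm2, −0.63 for Slc16a1, −0.58 for Minpp1 and −0.66 for Eno3. Among the other hypoxia and HIF genes (3 of 44 higher, counting Pfkfb4, and 11 lower) they were 1.07 for Hilpda, 0.50 for Insig2, −2.29 for Tfrc, −1.34 for Hif1an, −1.27 for Rbpj and −1.18 for Cited2. For pyruvate entry and the TCA cycle (9 of 31 higher, 2 lower) they were 1.24 for Idh2, 0.85 for Mdh1, 0.91 for Pdhb, 0.64 for Fh1, −1.90 for Pcx and −0.66 for Pdp2. In the pentose phosphate pathway (3 of 10 higher, 3 lower) they were 0.67 for Tkt, 0.73 for Taldo1, 0.64 for Pgls, −0.52 for Prps2, −0.48 for Rpe and −0.44 for H6pd. For the transcription factors (1 of 10 higher, 4 lower) they were 1.06 for Atf4, −4.26 for Ppargc1a, −0.72 for Foxo3, −0.47 for Mlxip and −0.37 for Sp1.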

How the results depend on the processing

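The counts of members called in the tumors were 0 under every alternative run, leaving out each sample included. In a fit of all 24 samples the count was 0 in E0771 (from 7) and 1 for the interaction (from 8), and that fit also takes in the spread of the tumors. At an adjusted p under 0.01 it was 5 in E0771-LG (from 10), 8 between the lines (from 14) and 3 for the interaction. With a log2 fold change of at least 0.5 as well, it was 3 in E0771 and 5 for the interaction. On leaving out each sample in turn the counts lay between 5 and 9 in E0771, 6 and 15 in E0771-LG, 10 and 14 between the lines, and 4 and 10 for the interaction. Without trend and robust settings in eBayes they were 5, 9, 11 and 6, and without the filter 7, 9, 13 and 8. With the replicate number as a block they were 7, 14, 14 and 11. That number is not known to pair samples: after the group means were taken out, samples of like number in the 2 groups correlated between −0.327 and 0.436 over the comparisons.

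Of 1104 values for single genes under an alternative, 924 kept direction and side of the threshold, 147 lost and 6 gained the call, and 27 changed sign. The calls gained were Vegfa in E0771-LG and in the interaction (each with the block, and without E0771-LGshCtrl 2), Slc2a1 in the interaction (without E0771-LGshPTN 1) and Hif1a between the lines (in shPTN cells). The signs that changed outside the left-out samples were for Ldha in 4T1 tumors (−0.031 after quantile normalization, −0.003 after centring), Hif1a in *MMTV-PyMT* tumors (−0.002 and −0.022), Slc2a1 there (−0.020 after centring), and Hif1a (0.123) and Slc2a1 (0.031) between the lines after centring. In shPTN cells the line difference was −0.189 for Adm and 0.279 for Slc2a1. On leaving out each sample the log2 difference ran from −0.142 to 0.191 for Ldha in 4T1, and in *MMTV-PyMT* tumors from −0.063 to 0.168 for Hif1a, −0.198 to 0.161 for Slc2a1 and −0.405 to 0.072 for Ldha. It ran from −0.042 to 0.146 for Vegfa in E0771 and from −0.260 to 0.042 for Slc2a1 in E0771-LG, and between the lines from −0.098 to 0.045 for Hif1a and −0.268 to 0.015 for Slc2a1. The causes were not tested. The 4T1 depth is unknown, so what it limits could not be assessed.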
